A study of Homo sapiens with 12 samples.

Results

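The G1/S cyclins and the RB-E2F family were examined as 10 genes, chosen by symbol from the 28008 genes listed for the MUC1-C silencing experiment and the 25435 genes listed for the MUC1-C overexpression experiment. They were the D-type cyclins CCND1, CCND2 and CCND3, the E-type cyclins CCNE1 and CCNE2, cyclin A2 (CCNA2), the pocket proteins RB1, RBL1 and RBL2, and the transcription factor E2F1. All 10 were listed in both experiments, 9 passed the filter on low counts in the silencing experiment and 10 in the overexpression experiment. The genes were picked by name, with earlier results of these data known, and the rule itself used no measured value.

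For silencing, LNCaP-ER/tet-MUC1shRNA cells received for 7 days either 0.1% DMSO (vehicle) or 500 ng/mL doxycycline (DOX), and 3 RNA-Seq libraries were made per group. LNCaP is an androgen-responsive prostate carcinoma line, LNCaP-ER is its derivative selected for 24 weeks in rising enzalutamide, an antiandrogen drug, and cells of both groups carried a MUC1 shRNA that DOX switches on. No DOX-treated libraries without this shRNA were analysed here, so DOX itself and the shRNA cannot be told apart. In the overexpression experiment, 3 LNCaP libraries were compared with 3 libraries of LNCaP/MUC1-C OE cells, which express MUC1-C from a CMV promoter in a vector with GFP and a hygromycin marker. The LNCaP controls are wild-type by their labels and vector by the names of their columns, and whether a line was 1 clone is not given in the sources used here. The RNA came from cells cultured in triplicate by the study's methods, so p-values measure the spread between cultures of 1 line in 1 experiment.

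D-type cyclins accumulate in response to mitogens and, with CDK4 or CDK6, begin the phosphorylation of the pocket proteins. E-type cyclins and later cyclin A2, with CDK2, complete it and drive S-phase. Pocket proteins that are not phosphorylated bind E2F factors and hold their target genes down, RB1 mainly with the activators such as E2F1, and RBL1 (p107) and RBL2 (p130) mainly with E2F4 and E2F5. RBL1, CCNE1, CCNE2, CCNA2 and E2F1 are themselves E2F targets, whereas RBL2 is most abundant in quiescent cells. Loss of RB1 accompanies the change of prostate adenocarcinoma to a neuroendocrine state.

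RefSeq windows of 300 bases around a transcription start (250 before and 50 after it, GRCh38.p14) were at hand for 7 of the 10 genes. They were searched on both strands for 4 E2F sequences (TTTGGCGC, TTTCCCGC, TTTCGCGC and TTTGCCGC), counting overlapping matches separately, and the windows of RBL1 and E2F1 each held 2 matches. Of all 35116 windows, 3.31% held at least 1 of these sequences. The stretches before the start of both genes are shown because only their windows held matches. RBL1 had the steepest fall of the 9 genes tested with DOX, and E2F1 did not pass the test. Whether these sequences bear on either result was not tested. Capitals mark the matches, and that nearest the 5′ end of the E2F1 stretch reads as TTTGCCGC on the opposite strand. The RBL1 stretch is chr20:37095998-37096045 and the E2F1 stretch chr20:33686386-33686440, both on the minus strand and written 5′ to 3′.
RBL1: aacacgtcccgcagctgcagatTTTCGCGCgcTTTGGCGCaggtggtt
E2F1: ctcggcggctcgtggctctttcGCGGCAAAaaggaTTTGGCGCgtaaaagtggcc
The matches began 26 and 16 bases before the RefSeq start in RBL1, and 33 and 20 bases before it in E2F1. The GENCODE v29 start of E2F1 (chr20:33686404, minus strand) lies within the E2F1 stretch, so part of that stretch is inside the gene by that annotation. None of these E2F letters was found in the windows of CCNE1, CCNA2, CCND3, RBL2 or RB1. The windows of CCND3, RBL2 and RB1 lie wholly inside the GENCODE v29 gene spans given below, that of RB1 at an internal start, so the outermost annotated starts of these genes were not searched. The cell-cycle homology region, bound by the MuvB complex, was searched as TTTGAA and TTCGAA. It was matched in RBL2 window 1, beginning 24 bases after the start of that window's transcript. It was not matched in RBL2 window 2 or in any window of CCND3, CCNE1, CCNA2, RB1, RBL1 or E2F1. Of all windows, 16.4% held a match. These are matches of letters, which say nothing of whether a factor was bound.

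Total counts ranged from 28045894 to 45807989 in the silencing libraries and from 13806856 to 19208944 in the overexpression libraries, and no replicate pair was as alike as counting error alone would give (chi-square over its degrees of freedom, 2.20 to 61.7). MUC1, the targeted gene, had 26, 10 and 13 counts in vehicle replicates 1 to 3, while the libraries labelled DOX had 3, 42 and 8. The count of 42 in DOX replicate 2 went against its label. By edgeR's quasi-likelihood test, MUC1 did not pass with DOX (log2 fold change 0.12, SE 0.93, adjusted p = 0.935). It passed in 0 of 14 alternatives, and without DOX replicate 2 its log2 fold change was -1.83 (adjusted p = 0.0617). No fit thus gave a fall of MUC1 RNA that passed, so each direction below is that of the libraries labelled DOX. In DOX replicate 2, 11.2% of the genes listed were at 0 counts, against 28.0% to 38.1% in the other libraries. MUC1 was counted 30, 25 and 31 times in LNCaP and 9168, 9959 and 12622 times in LNCaP/MUC1-C OE libraries. Of 7 luminal prostate markers, the summed level was 4130 to 4226 CPM (counts scaled to the library total) in vehicle and 4284 to 4773 CPM in DOX libraries, but only 362 to 378 CPM in LNCaP and 89.2 to 99.9 CPM in LNCaP/MUC1-C OE libraries, where KLK3 and FOLH1 were at 0 counts. All 7 of these markers were tested in each experiment, with 1 lower and 3 higher with DOX, and 5 lower and 0 higher with MUC1-C by edgeR's quasi-likelihood test. The libraries of the overexpression table thus held little of the RNA that defines luminal prostate cells, and its change cannot be told apart from MUC1-C in the results of that experiment. The identity of the cells in this table was not tested, so LNCaP and LNCaP/MUC1-C OE below are only names for these libraries. The labels write the latter as LNCaP shMUC1-C OE, although MUC1 counts were high in them, and LNCaP/MUC1-C OE is the name in the paper. Summed levels of the basal, stroma, leukocyte and neuroendocrine lists reached at most 51.3 CPM in any library, and the leukocyte list rose from 5.15 to 7.48 CPM in vehicle to 22.5 to 23.2 CPM in DOX libraries, with 1 of its 4 genes tested and that gene higher.

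With DOX, the D-type cyclins CCND1 and CCND3 and the E-type cyclin CCNE1 rose, and CCNA2, RBL1 and RBL2 fell. CCNE2, RB1 and E2F1 did not pass the test, and CCND2 was too low to be tested. Of the 9 genes tested, 6 thus passed at a threshold of 0.05 (quasi-likelihood test of edgeR, p adjusted by Benjamini-Hochberg over 14683 genes), where 27.3% of all genes passed. Their 3 increases stood against 12.8% of all genes higher, and their 3 decreases against 14.5% lower. The median log2 fold change of the 9 genes was -0.33, beside -0.02 for all genes tested. The same 6 genes passed without vehicle replicate 1, without DOX replicate 2, and without both, which stood apart from their groups. Over all genes, 3582 of 15081, 5243 of 14848 and 7130 of 14520 tested then passed. The fit without both was added after seeing the data, and leaving out libraries that stand apart narrows the spread within groups. Only 4 passed without vehicle replicate 2, vehicle replicate 3 or DOX replicate 1, and 3 without DOX replicate 3, while the calls over all genes went from 4006 to 2200, 2002, 2909 and 2067. In these bulk libraries, fewer cells in a given phase and less RNA per cell cannot be told apart.

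**Figure D1:**
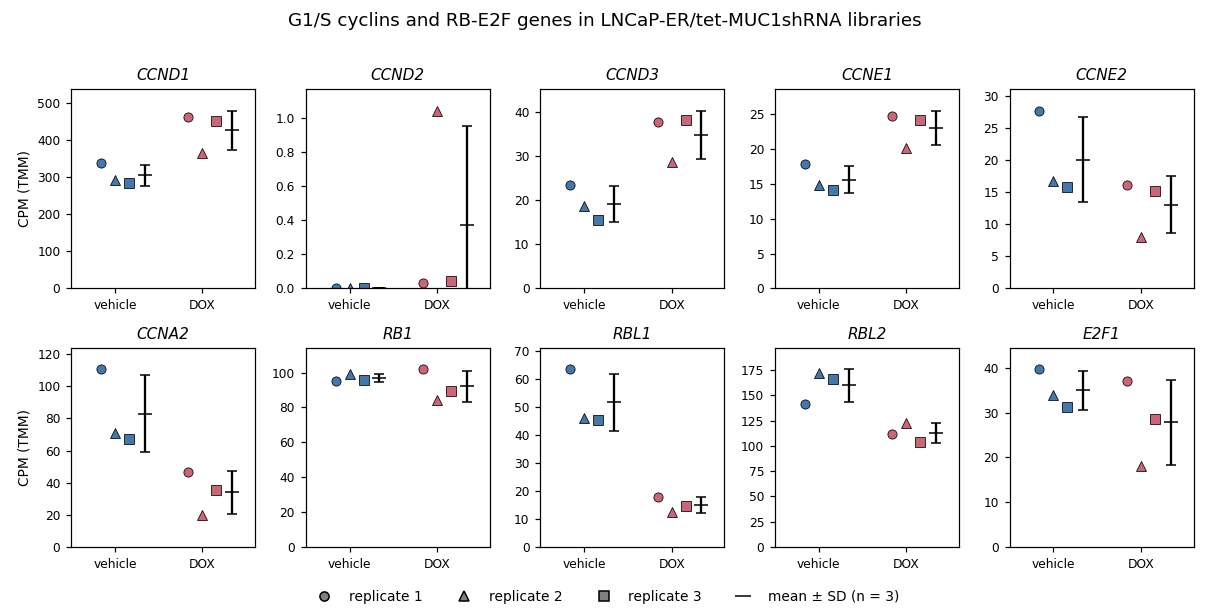
Levels of the 10 genes in CPM normalised by TMM (vertical axes, from 0) in 3 vehicle libraries (blue) and 3 libraries labelled DOX (red); symbols stand for replicate numbers, which name libraries and do not pair them, and bars for the mean ± SD (n = 3). All 3 DOX libraries lay above the vehicle libraries for CCND1, CCND3 and CCNE1 and below them for CCNA2, RBL1 and RBL2, while CCND2 was seen mainly in DOX replicate 2.

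CCND1, the cyclin D of many epithelial cells (chr11:69641087-69654474, plus strand, GRCh38, GENCODE v29), was the most abundant of the 10 genes in LNCaP-ER cells. Its level was 338, 293 and 286 CPM (normalised by TMM, as are the CPM below unless said otherwise) in vehicle and 462, 365 and 452 CPM in DOX libraries. The groups did not overlap, and DOX replicate 2 was the lowest of its group. This was a log2 fold change of 0.48 (SE 0.12, adjusted p = 0.0186), or 1.40-fold higher. This call rested on all but 2 of the libraries, since it was lost without vehicle replicate 2 (adjusted p = 0.0890), vehicle replicate 3 (0.0991), DOX replicate 1 (0.0685) or DOX replicate 3 (0.0861), with the log2 fold change between 0.41 and 0.44.

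CCND3, a D-type cyclin prominent in blood cells and in differentiated tissues (chr6:41934933-42050357, minus strand), was about as scarce as the E-type cyclins. Its level was 23.5, 18.6 and 15.4 CPM in vehicle and 37.7, 28.5 and 38.1 CPM in DOX libraries. All DOX libraries were above all vehicle libraries. They gave a log2 fold change of 0.86 (SE 0.18, adjusted p = 0.00877), or 1.81-fold higher, and the call held in all 17 alternatives apart from that requiring a log2 fold change of 1, with adjusted p at most 0.0441.

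CCND2, which many cells silence (chr12:4273772-4305350, plus strand), was at 0 counts in each vehicle library, where 3 counts, the limit that a count of 0 allows, would be 0.0807 to 0.102 CPM. It was counted 1, 31 and 2 times in the libraries labelled DOX. The 31 counts came from DOX replicate 2, in which 3004 genes with no count in the other silencing libraries were counted, against 33 to 135 such genes in each of the others. No fold is given, since 2 of the 3 DOX libraries were at or under the limit.

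Among the E-type and A-type cyclins, CCNE1 and CCNA2 moved in opposite directions. CCNE1, the regulatory subunit of CDK2 at the entry to S-phase (chr19:29811898-29824308, plus strand), stood at 17.8, 14.9 and 14.1 CPM in vehicle and 24.7, 20.1 and 24.2 CPM in DOX libraries. These groups did not overlap, with a log2 fold change of 0.56 (SE 0.14, adjusted p = 0.0188), or 1.47-fold higher. As for CCND1, the call was lost without vehicle replicate 2 (adjusted p = 0.0847), vehicle replicate 3 (0.0961), DOX replicate 1 (0.0683) or DOX replicate 3 (0.0782), and the log2 fold change then lay between 0.49 and 0.52.

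CCNE2, its paralog, was at 27.7, 16.7 and 15.8 CPM in vehicle and 16.1, 7.98 and 15.1 CPM in DOX libraries. The groups overlapped, because DOX replicate 1 lay just above vehicle replicate 3. The log2 fold change was -0.62 (SE 0.29, 95% confidence interval -1.28 to 0.04, adjusted p = 0.147). It was -0.04 when vehicle replicate 1 and DOX replicate 2, the extremes of their groups, were left out.

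CCNA2, which acts from S-phase to mitosis (chr4:121816444-121823933, minus strand), was at 111, 71.0 and 67.2 CPM in vehicle and 46.7, 20.0 and 35.3 CPM in DOX libraries. Every DOX library was below every vehicle library. The log2 fold change was -1.29 (SE 0.29, adjusted p = 0.0130), or 2.44-fold lower. Its size rested on 2 libraries, as it was -0.73 without vehicle replicate 1 and DOX replicate 2, a fit added after seeing the data. The call was lost without DOX replicate 3 (-1.32, adjusted p = 0.0520) and with no filter on low counts (adjusted p = 0.148).

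The pocket proteins split as well. RBL1 and RBL2 fell, and RB1 did not pass the test. RBL1 (p107; chr20:36996349-37095995, minus strand), whose start region with 2 E2F matches is shown above, was at 63.5, 46.3 and 45.5 CPM in vehicle and 17.9, 12.5 and 14.8 CPM in DOX libraries. The lowest vehicle library was more than 2 times the highest DOX library. With a log2 fold change of -1.78 (SE 0.18, adjusted p = 5.22e-04), or 3.44-fold lower, RBL1 had the steepest fall of the 9 genes tested. The log2 fold change was -1.47 without vehicle replicate 1 and DOX replicate 2, a fit added after seeing the data.

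RBL2 (p130; chr16:53433977-53491649, plus strand) was at 142, 172 and 166 CPM in vehicle and 112, 123 and 103 CPM in DOX libraries. The groups did not overlap, and the library order within groups was not that of RBL1, since vehicle replicate 1 was the lowest. RBL2 thus had a log2 fold change of -0.50 (SE 0.11, adjusted p = 0.0101), or 1.42-fold lower. On the TPM that the authors deposited, it was 0.05 on the log2(TPM + 1) scale (adjusted p = 0.851), a scale on which the median of all genes was shifted by 0.45. Of that TPM total, the small nuclear RNA RN7SK held 35.2% to 37.7% in vehicle and 24.6% to 31.4% in DOX libraries, and CCND1, CCND3, CCNE1, CCNA2 and RBL1 kept their calls there. With no filter on TPM, CCNA2 (adjusted p = 0.240) and RBL1 (0.0576) lost theirs.

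RB1, the retinoblastoma tumour suppressor (chr13:48303726-48599436, plus strand), was at 94.9, 99.3 and 95.7 CPM in vehicle and 102, 84.4 and 89.7 CPM in DOX libraries. The vehicle libraries lay within the range of the DOX libraries. The log2 fold change was -0.07 (SE 0.10, 95% confidence interval -0.29 to 0.15, adjusted p = 0.621), so a change the size of that of RBL1 or RBL2 lay outside the interval.

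E2F1, the activator E2F of this family (chr20:33675683-33686404, minus strand), was at 39.7, 33.9 and 31.3 CPM in vehicle and 37.0, 18.0 and 28.5 CPM in DOX libraries. The groups overlapped, with DOX replicate 1 above vehicle replicates 2 and 3. The log2 fold change was -0.33 (SE 0.23, 95% confidence interval -0.85 to 0.19, adjusted p = 0.315), and it was 0.03 without vehicle replicate 1 and DOX replicate 2. Within the vehicle group, 7 of the 9 genes were highest in replicate 1, and within the DOX group 8 of the 9 were lowest in replicate 2.

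On the per-length scale of the deposited TPM, which allows levels of different genes to be compared, CCND1 led the vehicle libraries at 46.2 ± 11.1 TPM (SD, n = 3). RBL2 (20.1 ± 1.66 TPM) and CCNA2 (19.8 ± 8.70 TPM) followed and did not differ beyond their spread, then RB1 (12.9 ± 1.79 TPM) and E2F1 (8.80 ± 2.38 TPM). CCNE1, RBL1, CCNE2 and CCND3 lay within each other's spread, between 4.09 ± 1.46 and 5.68 ± 1.54 TPM. In the DOX libraries, RBL2 (21.3 ± 6.12 TPM) and RB1 (18.1 ± 3.06 TPM) followed CCND1 (93.2 ± 9.15 TPM), with CCNA2 at 11.3 ± 3.69 TPM and RBL1 lowest of the genes tested at 2.24 ± 0.38 TPM.

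With MUC1-C overexpression, 9 of the 10 genes passed the test, but so did 67.3% of the 13836 genes tested. CCND1, CCND3, CCNE2, RB1 and RBL2 were lower, against 34.1% of all genes lower, and CCND2, CCNE1, CCNA2 and E2F1 were higher, against 33.2% of all genes higher. Their median log2 fold change was -0.07, beside -0.01 for all genes. Replicates were tight in this experiment, and several changes that passed were small. Scaling mattered for those, as with library sizes alone the median of all genes was shifted to -0.16, the split of all calls went from 4712 lower and 4600 higher to 6388 and 3050, and the calls of CCND2 and E2F1 were lost. In the silencing experiment the split of all calls was 2131 lower and 1875 higher, against 1647 and 2430 with library sizes alone and 254 and 4998 on log2(TPM + 1), and the 5 members called on both of these scales (CCND1, CCND3, CCNE1, CCNA2 and RBL1) kept their directions.

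**Figure D2:**
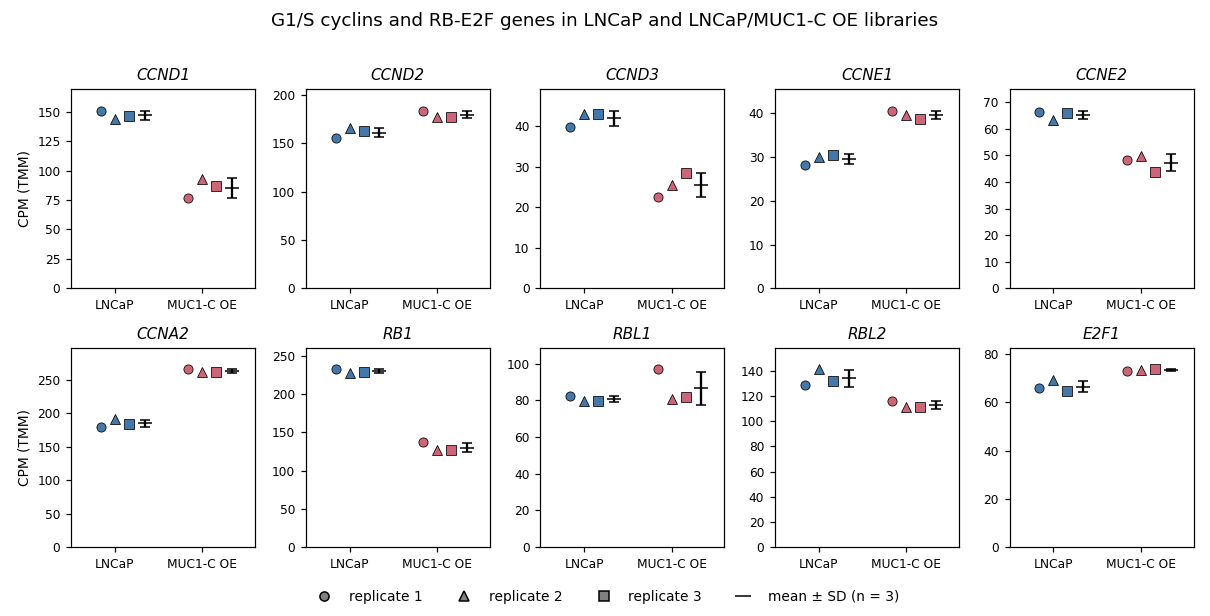
Levels of the 10 genes in CPM normalised by TMM (vertical axes, from 0) in 3 LNCaP (blue) and 3 LNCaP/MUC1-C OE libraries (red); symbols stand for replicate numbers and bars for the mean ± SD (n = 3). CCND1, CCND3, CCNE2 and RB1 lay clearly lower and CCNE1 and CCNA2 clearly higher with MUC1-C, whereas RBL1 overlapped and CCND2 and E2F1 were separated only by a small step that depends on the scaling.

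RB1 fell clearly with MUC1-C. It was at 233, 228 and 229 CPM in LNCaP and 137, 127 and 126.5 CPM in LNCaP/MUC1-C OE libraries. The lowest LNCaP library was far above the highest OE library. This made a log2 fold change of -0.82 (SE 0.05, adjusted p = 1.04e-10), or 1.77-fold lower. LPAR6 and other genes lie within RB1 on the opposite strand, and the strand setting of the counting was not given in the sources used here.

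The other pocket proteins changed less. RBL2 was at 129, 141 and 132 CPM in LNCaP and 116, 111 and 111 CPM in OE libraries, without overlap, with a log2 fold change of -0.25 (SE 0.05, adjusted p = 3.47e-04). RBL1 was at 82.6, 79.6 and 79.8 CPM in LNCaP and 97.1, 80.9 and 82.1 CPM in OE libraries, which overlapped. Its log2 fold change was 0.10 (SE 0.06, adjusted p = 0.162), with -0.05 when libraries were scaled by size alone, and it passed only without OE replicate 2 (0.16, adjusted p = 0.0478).

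CCND1 and CCND3 fell with MUC1-C. CCND1 was at 151, 144 and 146 CPM in LNCaP and 76.4, 92.9 and 87.2 CPM in OE libraries. Its log2 fold change was -0.78 (SE 0.06, adjusted p = 4.28e-09), or 1.72-fold lower. CCND3 went from 39.7, 43.2 and 43.0 CPM to 22.5, 25.5 and 28.6 CPM, again without overlap, with a log2 fold change of -0.71 (SE 0.08, adjusted p = 5.61e-07). CCND2, at 0 counts in the vehicle libraries above, was plentiful here, with 3159, 3127 and 3118 counts in LNCaP and 2713, 2314 and 2962 in OE libraries. Its log2 fold change was 0.16 (SE 0.05, adjusted p = 0.00692), but 0.00 when libraries were scaled by size alone (adjusted p = 0.975).

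CCNE1 and CCNE2 moved apart in the overexpression experiment. CCNE1 was at 28.2, 29.9 and 30.4 CPM in LNCaP and 40.5, 39.6 and 38.6 CPM in OE libraries, with a log2 fold change of 0.42 (SE 0.07, adjusted p = 2.24e-05). CCNE2 was at 66.2, 63.3 and 66.1 CPM in LNCaP and 48.1, 49.95 and 43.6 CPM in OE libraries, with a log2 fold change of -0.47 (SE 0.06, adjusted p = 3.52e-06). Neither gene's groups overlapped. CCNA2 rose from 180, 191 and 183 CPM to 266, 262 and 261 CPM, with a log2 fold change of 0.51 (SE 0.05, adjusted p = 2.30e-08), or 1.42-fold higher.

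E2F1 was at 65.8, 69.2 and 64.6 CPM in LNCaP and 73.1, 73.5 and 73.7 CPM in OE libraries. The log2 fold change was 0.14 (SE 0.05, adjusted p = 0.0257), and it turned to -0.01 when libraries were scaled by size alone (adjusted p = 0.871). It also missed the threshold by DESeq2 (adjusted p = 0.0562), with at least 10 counts in every library (0.0660), and without LNCaP replicate 1 (0.0823) or LNCaP replicate 3 (0.119).

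The experiments, which share no library, gave 5 genes called in both, of 9 tested in both, where 21.3% of the 11682 genes tested in both were called in both, 14.6% with opposite signs and 6.75% with the same sign. CCND1 and CCND3 rose with DOX and fell with MUC1-C, and CCNA2 fell with DOX and rose with MUC1-C, so these 3 genes moved in opposite directions. CCNE1 rose in both, and RBL2 fell in both. RB1 fell with MUC1-C only by the test, and RBL1 with DOX only by the test, and a difference between the experiments was not tested for any gene.

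**Figure D3:**
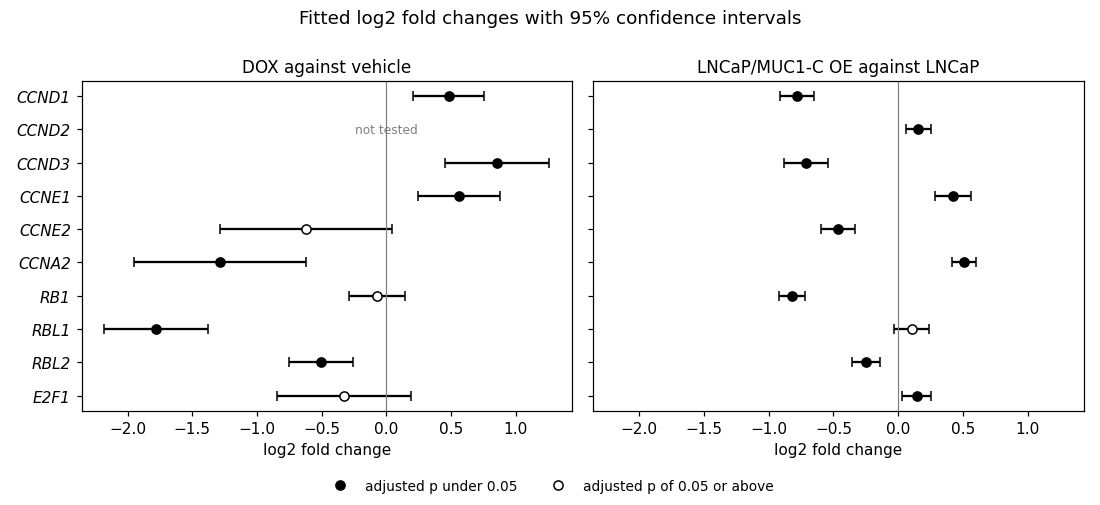
Log2 fold changes (horizontal axes) with 95% confidence intervals from edgeR for DOX against vehicle and for LNCaP/MUC1-C OE against LNCaP; filled points had an adjusted p under 0.05. The intervals of CCND1, CCND3 and CCNA2 lie on opposite sides of 0 in the panels, those of CCNE1 and RBL2 on the same side, and the intervals are wider in the silencing experiment.

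Ratios of 2 members within a library do not depend on the scaling between libraries, and 4 ratios were compared in each experiment by a two-sided exact permutation test of 3 against 3 libraries, for which the smallest possible p is 0.1. RBL2 relative to RBL1, the balance between the p130 of resting cells and the p107 of cycling cells, had a mean log2 ratio of counts of 1.64 ± 0.42 (SD, n = 3) in vehicle and 2.92 ± 0.34 in DOX libraries (exact permutation p = 0.1, adjusted p = 0.114 over the 8 comparisons). In the overexpression experiment it was 0.73 ± 0.10 in LNCaP and 0.38 ± 0.11 in OE libraries, with the same exact p. The groups of neither comparison overlapped, and the difference was 1.28 in one and -0.35 in the other.

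CCND1 relative to CCNA2 gave a log2 ratio of 1.91 ± 0.26 in vehicle and 3.72 ± 0.44 in DOX libraries, and -0.33 ± 0.08 in LNCaP and -1.63 ± 0.16 in OE libraries. These differences of 1.81 and -1.29 had opposite signs. CCNE2 relative to CCNE1 went from 0.32 ± 0.28 to -0.88 ± 0.40 with DOX and from 1.14 ± 0.08 to 0.25 ± 0.08 with MUC1-C, differences of -1.20 and -0.89 that put CCNE2 lower relative to CCNE1 in both. CCND3 relative to CCND1 rose by 0.39 with DOX, whereas with MUC1-C the difference was 0.06 with overlapping groups (exact permutation p = 0.6). Apart from this last one, each ratio had an exact permutation p of 0.1, which the design cannot lower, and an adjusted p of 0.114.

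**Figure D4:**
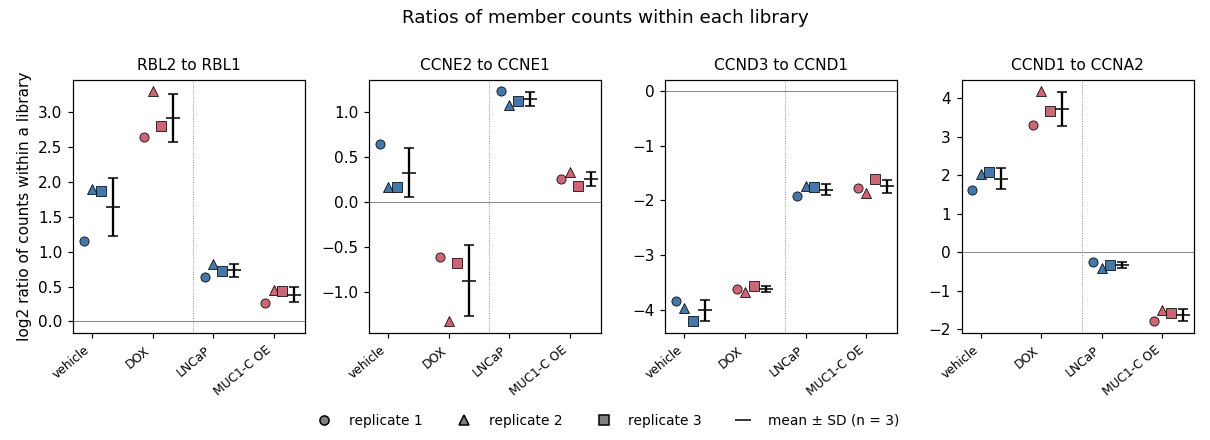
Log2 ratios of the counts of 2 members within each library (vertical axes) in vehicle and DOX libraries (left of the dotted line) and in LNCaP and LNCaP/MUC1-C OE libraries (right of it); symbols stand for replicate numbers and bars for the mean ± SD (n = 3). DOX libraries lie above vehicle libraries for RBL2 to RBL1 and CCND1 to CCNA2 and OE libraries below LNCaP libraries, while CCNE2 to CCNE1 is lower in both treated groups.

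The partners and targets of these genes were described as 8 lists with 65 genes, of which 64 were tested in each experiment. With DOX, 27 of them fell and 3 rose, against 14.5% and 12.8% of all genes, with a median log2 fold change of -0.50 beside -0.02 for all genes. On log2(TPM + 1), the scale shifted upward by 0.45, the split was 3 lower and 7 higher. With no filter on TPM, the falls of CDC25C, CDC25B, E2F7, FOXM1 and MYBL2 named below did not pass. The same held for CCNB1, CCNB2, CKS1B, TK1 and TYMS (limma, adjusted p = 0.0627 to 0.405 over these genes). With MUC1-C, 13 fell and 36 rose, against 34.1% and 33.2% of all genes, with a median of 0.16 beside -0.01 for all genes, and with library sizes alone 21 fell and 22 rose.

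**Figure D5:**
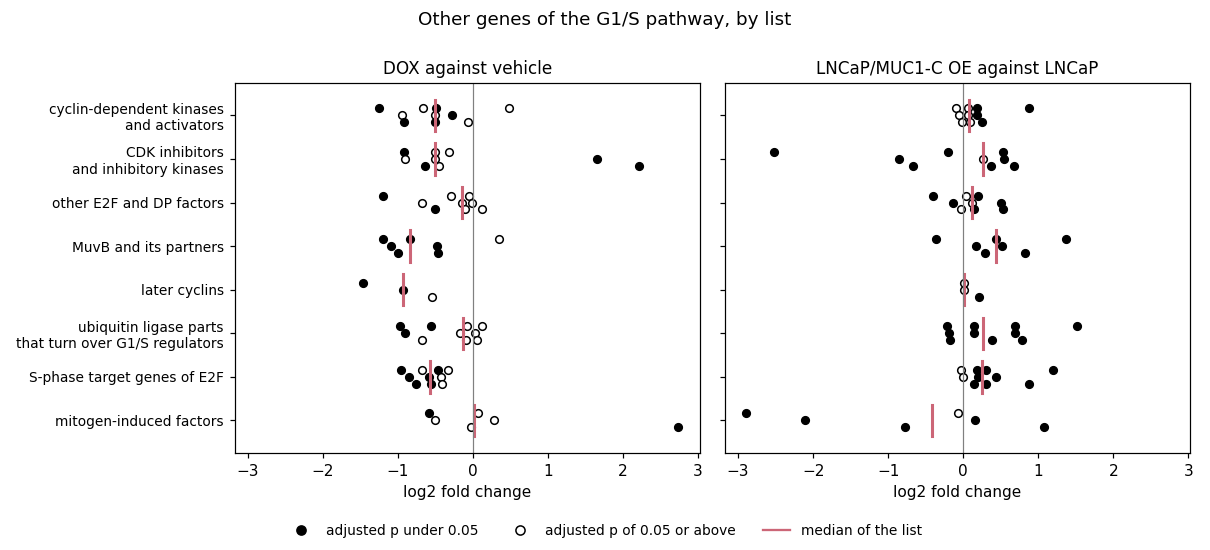
Log2 fold changes (horizontal axes) of the genes of each pathway list (rows) for DOX against vehicle and for LNCaP/MUC1-C OE against LNCaP; filled points had an adjusted p under 0.05 by edgeR and red lines mark the median of each list. With DOX most filled points lie below 0 apart from CDKN1A, CDKN2B and EGR1, and with MUC1-C the points far below 0 are CDKN1A, FOS and EGR1.

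CDKN1A (p21), which binds cyclin-CDK2 complexes and is a target of p53, rose from 205, 208 and 203 CPM in vehicle to 571, 575 and 791 CPM in DOX libraries, with a log2 fold change of 1.65 (SE 0.14, adjusted p = 3.32e-04). It fell from 119, 122 and 122 CPM in LNCaP to 20.7, 20.6 and 21.9 CPM in OE libraries, a log2 fold change of -2.52 (SE 0.06, adjusted p = 9.70e-16). CDKN2B (p15), an inhibitor of CDK4 and CDK6, rose from 1.01, 1.80 and 2.20 CPM to 5.64, 5.73 and 11.5 CPM with DOX and fell by 0.86 on the log2 scale with MUC1-C (adjusted p = 3.42e-05). Of the 9 inhibitors and inhibitory kinases, 2 rose and 2 fell with DOX, and 4 rose and 4 fell with MUC1-C, beside 27.3% and 67.3% of all genes called. CDKN2C (p18) and WEE1, the kinase that restrains CDK1, had log2 fold changes of -0.92 and -0.63 with DOX and of 0.55 and 0.68 with MUC1-C. The WEE1 call with DOX was lost without vehicle replicate 2 (adjusted p = 0.0623), vehicle replicate 3 (0.0558) or DOX replicate 3 (0.0544), and on log2(TPM + 1) its log2 fold change was -0.09. The CDKN2C call with DOX held without DOX replicate 1 and was lost without any other single library (adjusted p = 0.0558 to 0.133).

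Among the 10 cyclin-dependent kinases and activators, 5 fell and 0 rose with DOX, where 14.5% of all genes fell and 12.8% rose. With MUC1-C, 4 rose and 0 fell, a smaller share called than the 67.3% of all genes. The phosphatases CDC25C and CDC25B, which activate CDKs, fell by 1.25 (adjusted p = 0.00377) and 0.92 (adjusted p = 0.00218) on the log2 scale with DOX. CDK1 rose with MUC1-C by 0.87 (SE 0.07, adjusted p = 3.43e-08), and its log2 fold change with DOX was -0.67 (adjusted p = 0.0978). MNAT1, an assembly factor of the CDK-activating kinase, rose by 0.25 with MUC1-C, a call that library sizes alone did not keep (0.10, adjusted p = 0.140).

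Of the 7 genes of the MuvB complex and its partners, 6 fell and 0 rose with DOX, the largest share called of the 8 lists in that experiment (14.5% of all genes fell), and 6 rose and 1 fell with MUC1-C, where 33.2% of all genes rose. FOXM1, which drives mitotic genes with MuvB, went from 233, 195 and 184 CPM to 115, 64.9 and 88.1 CPM with DOX, a log2 fold change of -1.19 (SE 0.19, adjusted p = 0.00324). MYBL2, the partner of MuvB in S-phase, fell by 1.09 (adjusted p = 0.00877). With MUC1-C, the core subunits LIN9 and LIN52 rose by 1.37 and 0.82, while FOXM1 was the gene that fell, by 0.36 (adjusted p = 1.19e-04). LIN9 went from 33.0, 33.3 and 34.8 CPM to 84.1, 91.1 and 86.6 CPM there.

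The mitotic cyclins CCNB1 and CCNB2 fell with DOX by 0.93 (adjusted p = 0.00552) and 1.46 (adjusted p = 0.00140), making 2 of 3 later cyclins tested, a list too short to read against the 14.5% of all genes lower. With MUC1-C their log2 fold changes were 0.01 and 0.01, and CCNF was the 1 gene of the 3 that rose, by 0.22, or 0.06 with library sizes alone (adjusted p = 0.349). Among the 9 other E2F and DP factors, 2 fell and 0 rose with DOX, no larger a share than the 27.3% of all genes called, where E2F7, an E2F-induced repressor, fell by 1.20 (adjusted p = 0.00792) and E2F4, the partner of p107 and p130, by 0.50 (adjusted p = 0.0170), which on log2(TPM + 1) was 0.04 and which was lost without vehicle replicate 2 (adjusted p = 0.0556) or vehicle replicate 3 (0.0573). With MUC1-C 4 rose and 2 fell, near the 67.3% of all genes called, led by the activator E2F2 (0.52) and the repressor E2F8 (0.51), with E2F5 and TFDP2 at log2 fold changes of -0.40 and -0.14. The TFDP2 call was lost without LNCaP replicate 1 or 2 or OE replicate 2 or 3 (adjusted p = 0.0571 to 0.0913).

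Of the 10 S-phase target genes of E2F, 6 fell and 0 rose with DOX (against 14.5% and 12.8% of all genes), and 8 rose and 0 fell with MUC1-C (against 33.2% and 34.1%). TK1 and TYMS, enzymes of thymidylate supply, fell by 0.95 (adjusted p = 0.0135) and 0.85 (adjusted p = 0.0140) with DOX, and with MUC1-C they had log2 fold changes of -0.0032 and -0.03. ORC1 and CDT1, which license replication origins, rose with MUC1-C by 1.20 and 0.87. For CDT1 this was from 86.9, 91.1 and 94.2 CPM to 185, 156 and 157 CPM.

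Of 10 ubiquitin ligase parts that turn over G1/S regulators, 3 fell and 0 rose with DOX, close to the 27.3% of all genes called, and 7 rose and 3 fell with MUC1-C, where 67.3% of all genes were called. CKS1B, which helps SKP2 recognise p27, fell by 0.97 with DOX (adjusted p = 0.00161). FBXO5 (EMI1), the inhibitor of the anaphase-promoting complex, fell by 0.90 (adjusted p = 0.0471), a call that held without DOX replicate 1 and was lost without any other single library (adjusted p = 0.0687 to 0.153), and it rose by 0.78 with MUC1-C. DTL, the receptor by which a CUL4 ligase marks CDT1 and p21, rose from 94.9, 99.2 and 97.9 CPM to 296, 277 and 264 CPM with MUC1-C, a log2 fold change of 1.52 (SE 0.05, adjusted p = 9.94e-14). FBXW7 and AMBRA1, the receptors for cyclin E and for D-type cyclins, had log2 fold changes of -0.19 (adjusted p = 0.0168) and -0.22 (adjusted p = 0.00473) with MUC1-C. The FBXW7 call was lost without LNCaP replicate 1 (adjusted p = 0.0595), LNCaP replicate 3 (0.0514) or OE replicate 2 (0.0553).

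Of 6 mitogen-induced factors, which act upstream of the D-type cyclins, 1 rose and 1 fell with DOX, and 2 rose and 3 fell with MUC1-C, counts too small to set apart from the 27.3% and 67.3% of all genes called. EGR1 rose from 1.09, 1.67 and 1.67 CPM to 5.70, 16.8 and 7.01 CPM with DOX (log2 fold change 2.74, SE 0.43, adjusted p = 0.00306) and fell from 60.1, 44.7 and 34.6 CPM to 9.74, 13.1 and 9.80 CPM with MUC1-C (log2 fold change -2.11, SE 0.27, adjusted p = 0.00114). EGR1 had the same signs as CCND1 in both experiments. The log2 fold changes of MYC had the opposite signs in both, but that with DOX was 0.0031 on log2(TPM + 1). With DOX, FOS (log2 fold change -0.51, adjusted p = 0.652) and JUN (0.06, adjusted p = 0.889) did not pass. Whether any of these factors acted on CCND1 was not tested. FOS fell by 2.89 with MUC1-C, JUN rose by 1.07, and MYC had a log2 fold change of 0.16, or 0.01 with library sizes alone, its call also lost without LNCaP replicate 1 (adjusted p = 0.0900). With DOX, MYC went from 375, 623 and 622 CPM to 391, 376 and 313 CPM, in which vehicle replicate 1 lay among the DOX libraries. Its log2 fold change was -0.59 (SE 0.19, adjusted p = 0.0491). The call was lost without vehicle replicate 2 (adjusted p = 0.158) or vehicle replicate 3 (0.170), or without any 1 DOX library (0.0710 to 0.169). It held without vehicle replicate 1 (-0.80, adjusted p = 0.00516), and the log2 fold change was -0.80 without both vehicle replicate 1 and DOX replicate 2.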

How the data were processed

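RNA-Seq libraries from 4 groups of 3 were analysed. According to the labels and processing notes, the authors prepared stranded mRNA libraries and aligned reads with STAR to GRCh38 (hg38), and they deposited raw counts per gene symbol, 1 column per library. TPM values, deposited by the authors for 25545 genes, were at hand for the silencing libraries. Aligner version, annotation, strand setting and TPM gene lengths are not given in the sources used here. Groups and replicate numbers came from the labels. A further 12 columns of per-sample values in the overexpression table were not used.

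Each experiment was fitted separately with edgeR 4.0.16 in R 4.3.3 (quasi-likelihood test, robust dispersions, TMM, default filter on low counts, Benjamini-Hochberg adjustment over all genes tested, threshold 0.05). SE is the log2 fold change divided by the square root of F. CPM beside a test used TMM, and CPM of marker lists the library total. Within-library ratios had 0.5 added to each count. Alternatives were DESeq2 1.42.0, scaling by median-of-ratios factors or by library size alone, dropping the filter, a minimum of 10 counts per library, a minimum fold (log2 fold change of 1 in either direction), a replicate block, each library left out, and limma 3.58.1 on log2(TPM + 1) or log2(TPM + 0.1), with at least 1 TPM in 3 libraries or no filter. A fit without 2 libraries was added after seeing the data. The fit was tested on simulated data. Limits from 3 counts cover counting error only.

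The members and the gene lists were chosen with earlier results of these data known. Named genes were MUC1, the members, and per list and experiment up to 2 genes with the largest decrease and 2 with the largest increase among the called genes whose mean was 1 CPM or more. Coordinates are from GENCODE v29, matched by symbol, and those of CCNE2 are not reported here.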

Additional observations from a re-analysis of the deposited data

How the results depend on the processing

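With DOX, 6 members, 30 pathway genes and 4006 genes in all passed, and with MUC1-C 9, 49 and 9312. Leaving out 1 library gave 3 to 6 members (3 without DOX replicate 3), 21 to 33 pathway genes and 2002 to 5243 genes with DOX. Requiring an absolute log2 fold change of 1 left 2, 8 and 988 genes with DOX, and 0, 7 and 1917 with MUC1-C, where all 9 calls of members were smaller than that. Leaving out vehicle replicate 1 and DOX replicate 2 together gave 6, 37 and 7130. On log2(TPM + 1) 10 pathway genes passed, on log2(TPM + 0.1) 10, and with no filter on TPM 3 members, 3 pathway genes and 1589 genes, of 24157 tested. Among called genes, directions turned on TPM for RBL2 (0.052 and 0.053 at pseudocounts of 1 and 0.1), E2F4 (0.042 and 0.046) and MYC (0.0031 and 0.0029) with DOX, and with library sizes alone for E2F1 with MUC1-C (-0.011). The cause was not tested. Among genes not called, signs turned on log2(TPM + 1) for E2F1 (-0.33 to 0.16) and RB1 (-0.07 to 0.45) with DOX, and with library sizes alone for RBL1 (0.10 to -0.05) with MUC1-C. With the replicate block, 7 members (CCNE2 added, adjusted p = 0.0277), 38 pathway genes and 4226 genes passed with DOX, and 8 (E2F1 lost, adjusted p = 0.0523), 48 and 8965 with MUC1-C. Numbers did not pair the samples, since same-numbered libraries had deviations correlated by -0.07 to 0.09 and -0.15 to -0.03, and 2 of 6 and 0 of 6 libraries correlated best with their own number. CCND2 had too few counts to be tested with DOX, although every silencing library was deeper than the overexpression libraries in which it was plentiful.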

Other observations

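The tables of the experiments were made separately, so levels set across them carry no test. Divided by library totals, CCND2 stood at 164 to 174 CPM in LNCaP and 168 to 173 CPM in LNCaP/MUC1-C OE libraries, against 0 counts in each vehicle library of LNCaP-ER cells. CDK6, a kinase partner of the D-type cyclins, which was chosen after its values were seen, stood at 184 to 200 CPM in LNCaP and 158 to 178 CPM in LNCaP/MUC1-C OE libraries, against 3.47 to 4.41 CPM in vehicle and 1.64 to 3.42 CPM in DOX libraries. CDK4, the other kinase partner, chosen likewise, was nearer between the tables, at 205 to 216 CPM in LNCaP and 147 to 157 CPM in vehicle libraries. In the same libraries the summed luminal markers were lower in LNCaP than in vehicle, and the part of either difference that comes from the tables or from the cells was not tested.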
